A study of Mus musculus with 4 samples.

Results

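The ATP-binding cassette (ABC) transporter genes were taken as all genes of the deposited table whose symbol is Abc followed by a subfamily letter from a to g and a number, with or without a closing letter. This gave 50 genes of 52630 gene identifiers, with 16 in subfamily A, 10 in B, 10 in C, 4 in D, 1 in E, 3 in F and 6 in G. The libraries came from AML12 cells, a non-tumour hepatocyte line derived from mice with a transgene for human TGF-alpha, which both groups thus share. The 2 groups were cells infected with lentivirus carrying a control hairpin (shCtrl) and cells infected with a hairpin against Topors (shTopors), an E3 ligase gene, with 2 libraries each. Both groups received 200 µl of virus concentrate and were collected on day 5, in medium with 10% serum and 0.1 µM dexamethasone, a glucocorticoid that is thus present in the controls too. The labels do not say how many hairpins or cultures each group holds, so effects of the hairpin itself and of the loss of Topors cannot be told apart. P-values therefore rest on how far the libraries of a group differ, and that may be technical.

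ABC proteins use ATP to move substrates across membranes. In hepatocytes, members of subfamilies B, C and G export bile salts, phospholipids, conjugated metabolites, drugs and sterols into bile or blood, while members of subfamily A mostly move lipids. Members of subfamily D act in peroxisomes and lysosomes, several members of B sit in mitochondria, and the proteins of E and F carry the ATP-binding domain without a membrane part and act in translation. In liver the bile salt exporter Abcb11, the phosphatidylcholine floppase Abcb4 and the sterol pair Abcg5 and Abcg8 are known for making bile.

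Transcript levels are TPM, an abundance scaled for transcript length and library, as made by the authors. Paired values are given with library 1 of a group before library 2. TPM keeps no depth, so the reads behind a value are unknown. Topors itself, the targeted gene, stood at 21.9 and 29.2 TPM in the controls and 4.31 and 4.65 TPM in the knockdown, 5.71-fold lower on average (adjusted p = 0.0823 in limma); both knockdown libraries went with their labels. Genes of at least 1 TPM numbered from 12928 to 13847 per library, and small RNAs took from 25.8% to 30.4% of TPM. Of 7 hepatocyte markers all were tested and none passed in limma. Below both controls in both knockdown libraries were 3 (Trf, Ttr and Apob), where 35.2% of all genes tested were. The groups overlapped for the other markers of this list. The summed level of the 7 was 3305 and 5293 TPM in the controls and 1911 and 2450 TPM in the knockdown, with Trf and Ttr the most abundant. Albumin (Alb) was at 4.15 TPM in shTopors 1 and at 402 TPM in shTopors 2, below and above both controls. Of 9 stellate cell and fibroblast markers and 7 endothelial markers none reached 1 TPM on average, with Col3a1, Col1a2, Lrat, Lyve1, Cdh5 and Clec4g listed at 0 in all libraries. The 7 leukocyte markers summed to 2.12 and 2.94 TPM in the controls, 1.06 TPM in shTopors 1 and 14.8 TPM in shTopors 2, where Cd74 made up 13.3 TPM, while Adgre1 and Clec4f were listed at 0. Of 5 bile duct markers 4 were tested and none passed in limma, with a median log2 difference of -0.29. Their summed level was 952 and 1412 TPM in the controls and 1891 and 1088 TPM in the knockdown. Krt19 was higher in both knockdown libraries (341 and 296 TPM in the controls, 1396 and 345 TPM in the knockdown) and Sox9 lower in both (76.8 and 91.2 TPM, then 26.9 and 42.1 TPM). The groups overlapped for Spp1 and Krt7, and Epcam did not reach 0.1 TPM in any library. The part of these shifts in the values below was not tested.

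Of the 50 ABC transporter genes, 30 averaged 1 TPM or more over the libraries and were tested, and 20 were below it. The tested set included Abca1 to Abca7, Abca8a and Abca8b in subfamily A, Abcb1a, Abcb1b, Abcb6, Abcb8 and Abcb10 in B, and Abcc1 to Abcc6 with Abcc10 in C. It also held Abcd3 and Abcd4, Abce1, Abcf1 to Abcf3, and Abcg2. Below 1 TPM were Abca9, Abca12, Abca13, Abca14, Abca15, Abca16 and Abca17, then Abcb4, Abcb5, Abcb9 and Abcb11, then Abcc8, Abcc9 and Abcc12, then Abcd2, and finally Abcg1, Abcg3, Abcg4, Abcg5 and Abcg8. Of these 20 genes, 6 were listed at 0 in every library (Abca15, Abca16, Abcc9, Abcd2, Abcg1 and Abcg3) and 16 had a mean below 0.1 TPM. The nearest gene under the limit was Abcb9, a lysosomal peptide transporter, at 1.10 and 1.02 TPM in the controls and 0.346 and 0.480 TPM in the knockdown. The nearest above it was Abca4, a retinoid transporter gene known from the photoreceptor, at 0.364 and 0.262 TPM in the controls, 3.04 TPM in shTopors 1 and 0.435 TPM in shTopors 2. Abca4 thus entered the test through 1 knockdown library, and Abcc6 entered it through the controls.

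In shCtrl the family summed to 1008 and 1135 TPM, and in the knockdown to 1041 and 952 TPM, so the groups overlapped. Subfamily C held 29.5% of the family's TPM, A 22.8%, F 14.9%, B 10.9%, G 8.51%, D 7.47% and E 5.93%. The member with the highest control level was Abca3, a phospholipid transporter known from lung lamellar bodies, at 169 ± 23.7 TPM (SD, n = 2). It was followed by the organic anion exporters Abcc4 at 115 ± 12.2 TPM and Abcc3 at 108 ± 5.05 TPM, which did not differ beyond their spread. Abcg2 lay below both of these at 84.1 ± 3.68 TPM, with Abcf2 at 79.6 ± 5.23 TPM, Abcd3 at 73.4 ± 18.7 TPM and Abce1 at 64.1 ± 14.1 TPM after it, and each of these 4 overlapped its neighbour among them. These 7 genes were the members above 50 TPM on average over the 4 libraries, and 21 others lay between 5 and 50 TPM.

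**Figure D1:**
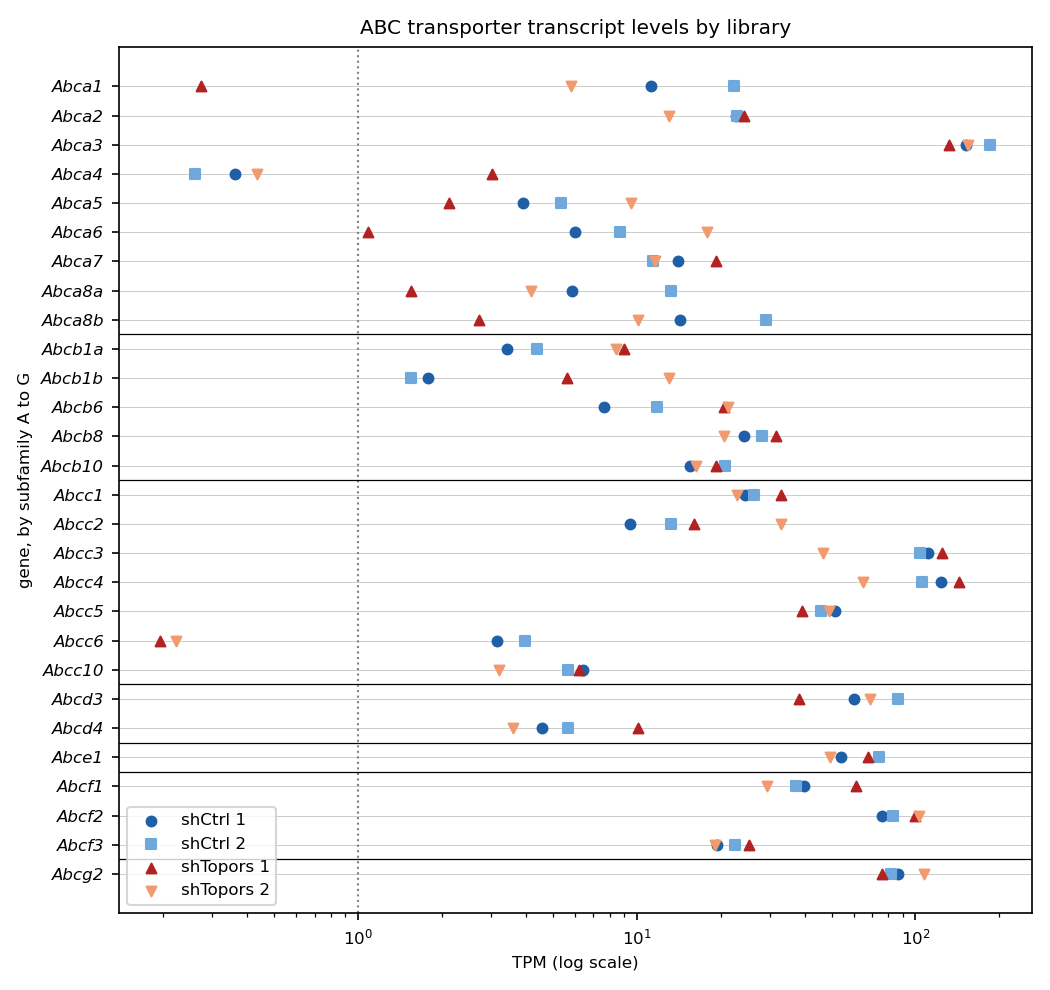
TPM (log axis) of 28 tested ABC transporter genes in each of the 4 libraries, ordered by subfamily, with a dotted line at 1 TPM. Abcc6 in both shTopors libraries, Abca1 in shTopors 1 and Abca4 in every library but shTopors 1 lie below the line. The shTopors symbols are often farther apart than the shCtrl symbols.

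No tested ABC transporter gene passed an adjusted p of 0.05 for shTopors against shCtrl in limma's test on log2(TPM + 1), where 5 of all 13509 genes tested did (0.037%). At an unadjusted p under 0.05 in limma, 4 members were higher in the knockdown (Abcb1a, Abcb1b, Abcb6 and Abcc2) and 5 were lower, among them Abca1, Abca8a, Abca8b and Abcc6. The same criterion took 3.98% of all genes as higher and 10.7% as lower, and 13.3% and 16.7% of the tested members. Both shTopors libraries lay above both shCtrl libraries for 6 members, the 4 named with Abca4 and Abcf2, which is 20% of members beside 14.6% of all genes. They lay below both for 6 members, those 5 included, which is 20% of members beside 35.2% of all genes. The groups overlapped for the other 18. The median log2 difference of the 30 members was -0.08, beside -0.18 for all genes tested, and after median-of-ratios scaling the pair was 0.10 and -0.02. In limma, with 2 libraries a group and p-values adjusted over all genes, Abcc6 did not pass, though its mean TPM was 17.0-fold lower. Its knockdown values lay under 1 TPM, and its difference on the tested log2(TPM + 1) scale was -1.91.

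**Figure D2:**
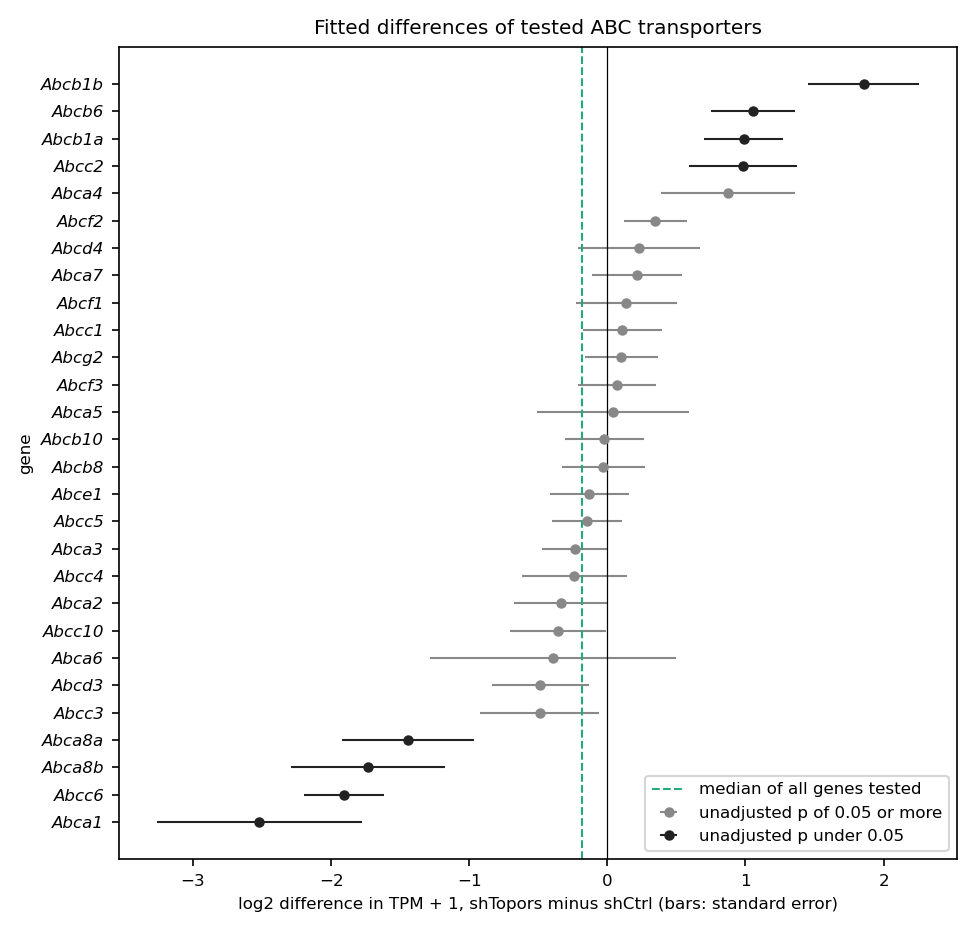
Fitted difference between shTopors and shCtrl on the log2(TPM + 1) scale for 28 tested ABC transporter genes, with standard errors as bars and the median of all genes tested as a dashed line. Abcb1b lies farthest to the right at 1.86 and Abca1 farthest to the left at -2.52, and black points had an unadjusted p under 0.05.

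The region upstream of the start site is shown for the 4 of these 9 genes whose start in the RefSeq promoter table is that of GENCODE M21, since they include the members with the highest and the lowest fitted difference. Each line holds the 250 bases before the start (build GRCm38.p6), read 5′ to 3′ along the gene. Capitals mark every match, on either strand, to any of 4 motifs. The CCAAT box was searched by the letters of its name. The GC box was searched as GGGCGG on both strands. The TATA box was searched as TATAAA, and the E-box as the palindrome CACGTG. In Abcb6 the TATA matches of both strands overlap and a GC box follows without a gap.
Abcb1b, higher in the knockdown, chr5:8797897-8798146, plus strand: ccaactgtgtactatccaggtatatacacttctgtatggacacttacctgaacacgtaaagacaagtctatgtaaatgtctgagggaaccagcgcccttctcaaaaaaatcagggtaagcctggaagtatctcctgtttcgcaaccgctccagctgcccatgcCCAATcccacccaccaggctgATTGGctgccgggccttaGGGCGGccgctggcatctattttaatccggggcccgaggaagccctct
Abcb6, higher in the knockdown, chr1:75180393-75180642, minus strand: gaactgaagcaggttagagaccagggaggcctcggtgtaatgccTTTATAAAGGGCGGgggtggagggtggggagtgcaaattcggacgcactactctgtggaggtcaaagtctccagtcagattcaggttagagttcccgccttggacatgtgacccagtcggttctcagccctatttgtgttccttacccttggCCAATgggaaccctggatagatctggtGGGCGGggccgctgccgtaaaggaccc
Abca1, lower in the knockdown, chr4:53159896-53160145, minus strand: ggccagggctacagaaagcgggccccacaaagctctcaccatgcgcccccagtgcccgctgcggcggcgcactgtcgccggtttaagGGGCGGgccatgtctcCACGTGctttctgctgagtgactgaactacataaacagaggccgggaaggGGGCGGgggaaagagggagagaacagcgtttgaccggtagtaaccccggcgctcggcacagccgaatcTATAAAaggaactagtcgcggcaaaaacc
Abca8b, lower in the knockdown, chr11:109995846-109996095, minus strand: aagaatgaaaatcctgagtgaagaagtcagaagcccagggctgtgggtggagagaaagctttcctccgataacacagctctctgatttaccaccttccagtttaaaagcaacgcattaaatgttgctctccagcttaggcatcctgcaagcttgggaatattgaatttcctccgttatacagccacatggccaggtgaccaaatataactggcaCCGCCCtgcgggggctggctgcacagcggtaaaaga

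Abcb1b held CCAAT matches beginning 87 and 66 bases before its start and a GC box at 48. Abcb6 held a CCAAT box at 54, GC boxes at 198 and 27, and a TATA match on each strand at 206 and 204. Abca1 held a TATA box at 29 bases with GC boxes at 163 and 97 and an E-box at 147, while Abca8b held 1 GC box at 36. Promoters were found for 22 of the 30 tested members, 28 sequences in all. Of these 28, 57.1% held a GC box, 21.4% a CCAAT box, 10.7% a TATA box and 14.3% an E-box, beside 32.7%, 33.8%, 12.4% and 6.02% of all 32851 promoters of the table. These matches describe letters in the window and are no evidence of binding. The 28 sequences came from genes averaging 1 TPM or more, 5 of them with 2 or more sequences. The promoters of the table were not filtered by level, so the 2 sets are unlike.

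The bile salt and phospholipid exporters of the canalicular membrane were nearly without transcript in this line. Abcb11, the bile salt export pump, was listed at 0 and 0.0204 TPM in the controls and at 0.0282 and 0 TPM in the knockdown. Abcb4, which moves phosphatidylcholine into bile, was at 0.0483 and 0.0757 TPM in the controls and at 0.0116 and 0.0793 TPM in the knockdown. Abcg5 and Abcg8, whose products pair to export sterols, were at 0.0469 and 0.0435 TPM and at 0 and 0.167 TPM in the controls, and were both listed at 0 in the knockdown. All values of these 4 genes lay below 0.2 TPM, and no fold was computed.

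Abcc2 and Abcc3, the canalicular and basolateral exporters of conjugated bilirubin and bile acids, were not alike, since Abcc2 was higher in both knockdown libraries and Abcc3 was not. Abcc2 (mm10 chromosome 19, 43782192 to 43840740, plus strand) was at 9.47 and 13.2 TPM in the controls and at 16.1 and 33.0 TPM in the knockdown, with means of 11.4 ± 2.67 and 24.6 ± 11.9 TPM (SD, n = 2). Both knockdown libraries lay above both controls, shTopors 2 by more, and the log2 difference was 0.98 (SE 0.388, adjusted p = 0.317 in limma). Abcc3 was at 111 and 104 TPM in the controls, 124 TPM in shTopors 1 and 46.7 TPM in shTopors 2. The knockdown libraries thus lay on either side of the controls, and the log2 difference was -0.49 (SE 0.433, adjusted p = 0.611 in limma). Abcc4, which exports cyclic nucleotides, bile acids and drugs, had the same order of libraries, with 123 and 106 TPM in the controls, 143 TPM in shTopors 1 and 65.0 TPM in shTopors 2.

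Genes around bile acids were described from a fixed list of 20 for synthesis, uptake and sensing. Of these, 14 were below 1 TPM, among them, named for their role with their values known, the uptake carrier Slc10a1 and the rate-limiting enzyme Cyp7a1, and 5 were listed at 0 in all libraries. None of the 6 tested passed over all genes in limma, where 2 had an unadjusted p under 0.05, the same 2 lay lower without overlap, and the median log2 difference was -0.38. The bile acid receptor Nr1h4 (FXR), whose known targets include Abcb11, was at 143 ± 32.9 TPM in the controls and 145 ± 3.02 TPM in the knockdown (SD, n = 2). The synthesis genes Hsd3b7 and Cyp27a1 were at 50.9 ± 51.6 and 26.0 ± 3.09 TPM in the controls and at 38.6 ± 35.5 and 19.6 ± 10.5 TPM in the knockdown, with groups that overlapped. The counts of this and the following lists stand beside a median of -0.18 over all genes tested, of which 14.6% lay higher and 35.2% lower without overlap. At an unadjusted p under 0.05 in limma, 3.98% of all genes tested were higher and 10.7% lower.

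The P-glycoprotein genes Abcb1a and Abcb1b, which export many drugs, were both higher in both knockdown libraries. Abcb1a (mm10 chromosome 5, 8660077 to 8748575, plus strand) was at 3.43 and 4.38 TPM in the controls and at 8.99 and 8.40 TPM in the knockdown. Its group means were 3.91 ± 0.666 and 8.70 ± 0.412 TPM (SD, n = 2), 2.23-fold higher in the knockdown, with a log2 difference of 0.99 (SE 0.286, adjusted p = 0.224 in limma). The spread within each group was small beside this difference. Abcb1b (chromosome 5, 8798147 to 8866315, plus strand) was at 1.79 and 1.55 TPM in the controls and at 5.63 and 13.0 TPM in the knockdown. It was 5.59-fold higher in mean TPM, and its log2 difference of 1.86 (SE 0.400, adjusted p = 0.169 in limma) rested on knockdown libraries that were themselves 2.31-fold apart. In shCtrl, Abcb1a was the higher of the pair in both libraries, while in shTopors 2 it was the lower. Of the 50-base windows of their longest coding transcripts in GENCODE M21, 17% of Abcb1a and 18.3% of Abcb1b also occur in another gene, nearly all in each other. How such reads were shared out is not given in the sources, so the split between the pair is uncertain. The short gene 7330423F06Rik, on the strand of Abcb1b and overlapping it, was listed at 0 in the controls and at 0.0787 and 1.06 TPM in the knockdown.

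For the drug exporters Abcg2, Abcc1, Abcc5 and Abcc10 the groups overlapped, while for Abcc2, given above, they did not. Abcg2, the breast cancer resistance protein gene, was at 86.7 and 81.5 TPM in the controls and at 75.9 and 107 TPM in the knockdown. Abcc1, which exports glutathione conjugates, was at 24.4 and 26.4 TPM in the controls and at 32.9 and 22.8 TPM in the knockdown. Both had knockdown libraries on either side of both controls. Abcc5, an exporter of cyclic nucleotides, was at 51.7 and 45.9 TPM in the controls and at 39.2 and 49.0 TPM in the knockdown, and Abcc10 was at 6.40 and 5.68 TPM in the controls and at 6.19 and 3.20 TPM in the knockdown. The log2 differences of these 4 genes lay between -0.36 and 0.11, with adjusted p-values from 0.646 to 0.869 in limma.

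Of 11 genes fixed for xenobiotic sensing and organic ion uptake, 7 were tested and none passed over all genes in limma, where 1 lower one had an unadjusted p under 0.05. Their median log2 difference was -0.29, beside -0.18 for all genes, and 3 of the 7 were lower without overlap, where the share over all genes was 35.2%. Nfe2l2, which encodes the oxidative stress factor NRF2 that is known to act on several Abcc genes, was at 132 ± 17.5 TPM in the controls and 87.5 ± 14.9 TPM in the knockdown (SD, n = 2). The reductase gene Por was at 76.0 ± 6.0 and 102.5 ± 70.7 TPM, with groups that overlapped, and the transporter gene Slc22a18 at 40.8 ± 2.66 and 18.4 ± 11.8 TPM, without overlap. The receptor genes Nr1i2 (PXR) and Nr1i3 (CAR) stood at 3.43 ± 1.01 and 2.03 ± 0.115 TPM and at 0 in all libraries, respectively, and were named for their role after their values were seen.

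Abcc6 had the smallest unadjusted p of the family. Its product, in liver, mediates the release of ATP from which the mineralization inhibitor pyrophosphate is made. Abcc6 (mm10 chromosome 7, 45967555 to 46030302, minus strand) was at 3.15 and 3.97 TPM in the controls and at 0.196 and 0.223 TPM in the knockdown. Both knockdown libraries were low and close to each other, and the means of 3.56 ± 0.581 and 0.209 ± 0.0188 TPM (SD, n = 2) were 17.0-fold apart. The knockdown values lay under 1 TPM, where the log2(TPM + 1) scale also narrows the spread between libraries. Abcc6 entered the test through its controls alone, so its closeness and small p are limited by that floor. The difference on the log2(TPM + 1) scale, where low genes move less, was -1.91 (SE 0.288, adjusted p = 0.107 in limma). It ranged from -2.04 to -1.78 when each library was left out in turn. No window of 50 bases in its transcript occurs in another gene of GENCODE M21. The neighbouring member Abcc8, a subunit of a potassium channel, was at 0.0332 and 0.460 TPM in the controls and 0.0290 and 0.585 TPM in the knockdown.

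The lipid transporters of subfamily A held the lowest fitted difference of the family, that of Abca1, and the 5 widest gaps between the knockdown libraries on the log2(TPM + 1) scale, those of Abca6, Abca1, Abca5, Abca8b and Abca4. Abca1, which loads cholesterol and phospholipid onto apolipoprotein A-I, lies on mm10 chromosome 4 (53030787 to 53159895, minus strand). It was at 11.3 and 22.4 TPM in the controls, 0.273 TPM in shTopors 1 and 5.84 TPM in shTopors 2. Both knockdown libraries lay below both controls but 21.4-fold apart from each other, and the controls were 1.99-fold apart. The log2 difference was -2.52 (SE 0.740, adjusted p = 0.227 in limma), and it was -1.31 without shTopors 1 and -3.73 without shTopors 2. Abcg1, which also acts in cholesterol efflux, was listed at 0 in all libraries.

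Of 17 genes fixed for sterol efflux and its LXR receptors, 15 were tested and none passed over all genes in limma, where 3 lower ones had an unadjusted p under 0.05. Their median log2 difference was -0.23, beside -0.18 for all genes. Groups did not overlap for 7 lower genes of the 15, where the share over all genes was 35.2%, and for 1 higher gene. Apoe, the most abundant, was at 317 ± 153 TPM in the controls and 20.3 ± 17.9 TPM in the knockdown (SD, n = 2), Lpcat3 at 141 ± 9.64 and 123 ± 14.6 TPM, and Npc2 at 122 ± 4.54 and 105 ± 22.8 TPM. Nr1h3, which encodes the LXR-alpha receptor known to act on Abca1 and was named for that role after its values were seen, was at 45.0 ± 2.76 TPM in the controls and 23.7 ± 4.31 TPM in the knockdown. The other LXR gene of the list, Nr1h2, also named after its values were seen, had groups that overlapped. It was at 26.2 ± 5.57 TPM in the controls and 21.8 ± 1.53 TPM in the knockdown. A link of either gene to Abca1 was not tested.

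A group of 5 neighbouring genes, Abca8b, Abca8a, Abca9, Abca6 and Abca5, spans 406 kb of chromosome 11 (109932190 to 110337716, all minus strand). Abca8b was at 14.3 and 29.0 TPM in the controls and at 2.73 and 10.1 TPM in the knockdown, and Abca8a at 5.84 and 13.3 TPM in the controls and at 1.55 and 4.18 TPM in the knockdown. Both were lower in both knockdown libraries, by 3.37-fold and 3.34-fold in mean TPM, with log2 differences of -1.74 (SE 0.558) and -1.44 (SE 0.478) and adjusted p-values of 0.248 and 0.258 in limma. Within the groups the second library was the higher in both genes, by 2.02-fold in the controls and 3.71-fold in the knockdown for Abca8b and by 2.27-fold and 2.70-fold for Abca8a. Abca6 was at 6.03 and 8.69 TPM in the controls, 1.09 TPM in shTopors 1 and 17.9 TPM in shTopors 2. Abca5 was at 3.91 and 5.37 TPM in the controls, 2.13 TPM in shTopors 1 and 9.56 TPM in shTopors 2. For this pair shTopors 1 was below both controls and shTopors 2 above both, and their fitted log2 differences of -0.39 and 0.04 describe neither library. Abca9, which lies between Abca8a and Abca6, stayed at or below 0.208 TPM in every library. Abca8a and Abca8b share 1.89% and 1.42% of their 50-base windows, with each other.

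**Figure D3:**
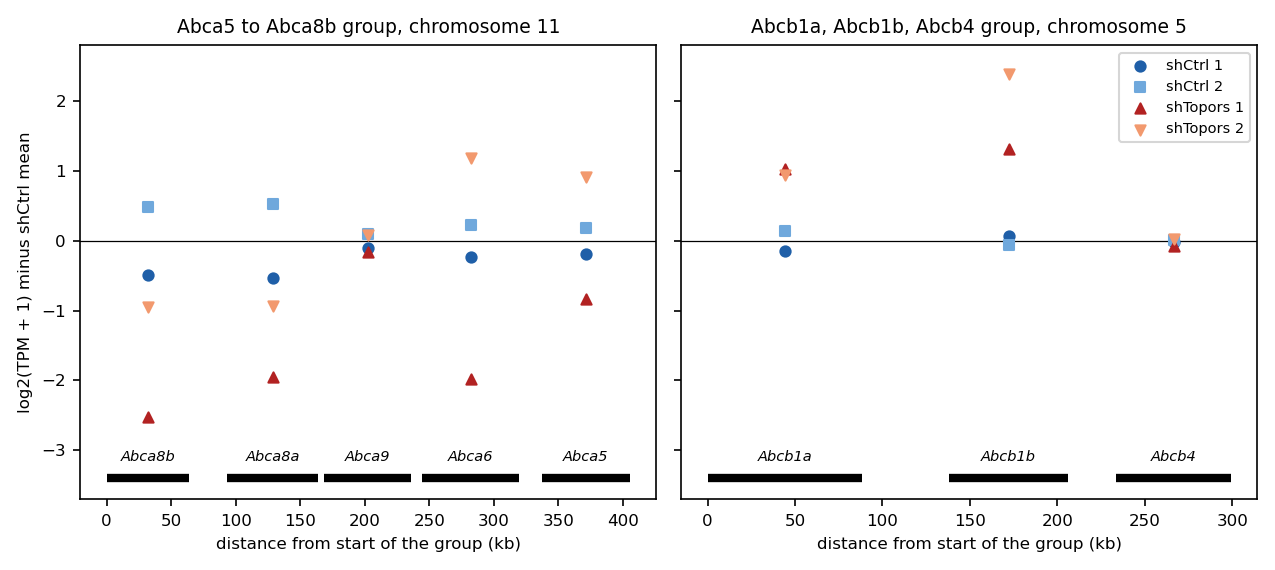
Log2(TPM + 1) minus the shCtrl mean in each library for the neighbouring members on chromosome 11 (left) and chromosome 5 (right), against distance from the start of each group in kb, with gene bodies as black bars. On chromosome 11 shTopors 1 lies below the controls at Abca8b, Abca8a, Abca6 and Abca5, while shTopors 2 lies below them at Abca8b and Abca8a and above them at Abca6 and Abca5. On chromosome 5 both shTopors libraries lie above the controls at Abcb1a and Abcb1b.

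Of the other tested genes of subfamily A, Abca3 was at 152 and 186 TPM in the controls and at 131 and 154 TPM in the knockdown, and its groups overlapped. Abca2, a lysosomal lipid transporter, was at 22.7 and 22.8 TPM in the controls, 24.3 TPM in shTopors 1 and 13.1 TPM in shTopors 2. Abca7, which acts on phospholipids and is known from Alzheimer disease genetics, was at 14.1 and 11.5 TPM in the controls and at 19.2 and 11.6 TPM in the knockdown. The adjusted p-values of these 3 genes lay between 0.652 and 0.766 in limma. Abca4 had a log2 difference of 0.88 (SE 0.485, adjusted p = 0.437), which came from the single value of 3.04 TPM in shTopors 1.

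Among the mitochondrial and porphyrin-linked members of subfamily B, Abcb6 was higher in both knockdown libraries. Abcb6, a porphyrin transporter gene (mm10 chromosome 1, 75171717 to 75180392, minus strand), was at 7.65 and 11.8 TPM in the controls and at 20.5 and 21.3 TPM in the knockdown. The knockdown libraries were nearly equal, and the means of 9.75 ± 2.97 and 20.9 ± 0.523 TPM (SD, n = 2) were 2.15-fold apart, with a log2 difference of 1.06 (SE 0.303, adjusted p = 0.224 in limma). Of its 50-base windows 90.3% also occur in the overlapping transcript Gm29253 on the same strand, which was listed at 0.108 TPM or less in each library, so the value of Abcb6 depends on how such reads were shared.

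Abcb8 and Abcb10, both of the inner mitochondrial membrane, had fitted differences near 0. Abcb8 was at 24.3 and 28.0 TPM in the controls and at 31.6 and 20.6 TPM in the knockdown. Abcb10 was at 15.6 and 20.7 TPM in the controls and at 19.2 and 16.3 TPM in the knockdown. Their log2 differences were -0.03 (SE 0.301) and -0.02 (SE 0.285), and 0.15 and 0.16 after median-of-ratios scaling. Of 13 genes fixed for mitochondrial heme and iron-sulfur assembly, all were tested and none passed over all genes in limma, where 1 lower one had an unadjusted p under 0.05. Their median log2 difference was 0.06, with 1 higher and 3 lower among those whose groups did not overlap. The scaffold gene Iscu was at 90.8 ± 10.1 TPM in the controls and 100.3 ± 31.5 TPM in the knockdown, the cysteine desulfurase gene Nfs1 at 44.9 ± 4.58 and 40.5 ± 22.7 TPM, and the ferrochelatase gene Fech at 49.3 ± 3.22 and 31.2 ± 7.28 TPM (SD, n = 2).

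In subfamily D, Abcd3 and Abcd4 had groups that overlapped, and Abcd2, a peroxisomal fatty acid importer, was listed at 0 in all libraries. Abcd3, which imports branched-chain acids and bile acid precursors into peroxisomes, was at 60.2 and 86.6 TPM in the controls, 38.2 TPM in shTopors 1 and 68.9 TPM in shTopors 2, so shTopors 2 lay between the controls. Abcd4, a lysosomal protein needed for cobalamin export, was at 4.57 and 5.68 TPM in the controls, 10.1 TPM in shTopors 1 and 3.60 TPM in shTopors 2. Of 12 genes fixed for peroxisomes, 11 were tested and none passed over all genes in limma, where 2 higher and 1 lower had an unadjusted p under 0.05. Among those whose groups did not overlap 2 were higher and 3 lower, and the median log2 difference was -0.19. Hsd17b4, a beta-oxidation enzyme gene, was at 112 ± 17.2 TPM in the controls and 114.5 ± 23.7 TPM in the knockdown, and Acaa1a at 64.0 ± 6.13 and 114 ± 28.9 TPM (SD, n = 2).

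The soluble members of subfamilies E and F were expressed throughout. Abce1, which splits ribosomes after termination, was at 54.1 and 74.1 TPM in the controls and at 67.7 and 49.2 TPM in the knockdown. Abcf2 was at 75.9 and 83.3 TPM in the controls and at 99.5 and 103 TPM in the knockdown, above both controls in both knockdown libraries, with a log2 difference of 0.35 (SE 0.229, adjusted p = 0.499 in limma). Abcf1, which binds the initiation factor eIF2, was at 39.7 and 37.4 TPM in the controls, 61.1 TPM in shTopors 1 and 29.4 TPM in shTopors 2. Abcf3 was at 19.5 and 22.4 TPM in the controls and at 25.4 and 19.1 TPM in the knockdown. For Abce1, Abcf1 and Abcf3 the groups overlapped. Of 13 symbols fixed for ribosome recycling and eIF2, 12 were in the table and tested, and none passed over all genes or had an unadjusted p under 0.05 in limma. The median log2 difference was 0.03, with 1 higher and 2 lower among those whose groups did not overlap. Etf1, the release factor gene, was at 119 ± 27.0 TPM in the controls and 126 ± 14.4 TPM in the knockdown, Eif2s2 at 79.7 ± 16.0 and 63.5 ± 3.31 TPM, and Gcn1l1 at 58.0 ± 3.92 and 62.0 ± 27.2 TPM (SD, n = 2).

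The 2 knockdown libraries disagreed over the ABC transporters more than over the genes as a whole. On the log2(TPM + 1) scale 11 of the 30 tested members were at least 2-fold apart within the knockdown, which is 36.7% beside 10.8% of all genes tested. Within the controls Abca8a was the 1 such member, beside 2.38% of all genes. Of the 11, Abca4, Abcc3, Abcc4, Abcd4 and Abcf1 were higher in shTopors 1, and Abca1, Abca5, Abca6, Abca8a, Abca8b and Abcb1b in shTopors 2. The median gap of the members was 0.262 within the controls and 0.769 within the knockdown on the log2 scale, beside 0.259 and 0.357 for all genes. For 16 members (53.3%) the knockdown libraries lay on opposite sides of the control mean, beside 30.4% of all genes, and in 12 of these shTopors 1 was the higher. These shares describe the libraries and were not tested. Low genes move less on this scale, and the sets are not alike in level. Of the tested members 28 of 30 averaged 5 TPM or more, beside 10177 of 13509 genes tested.

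**Figure D4:**
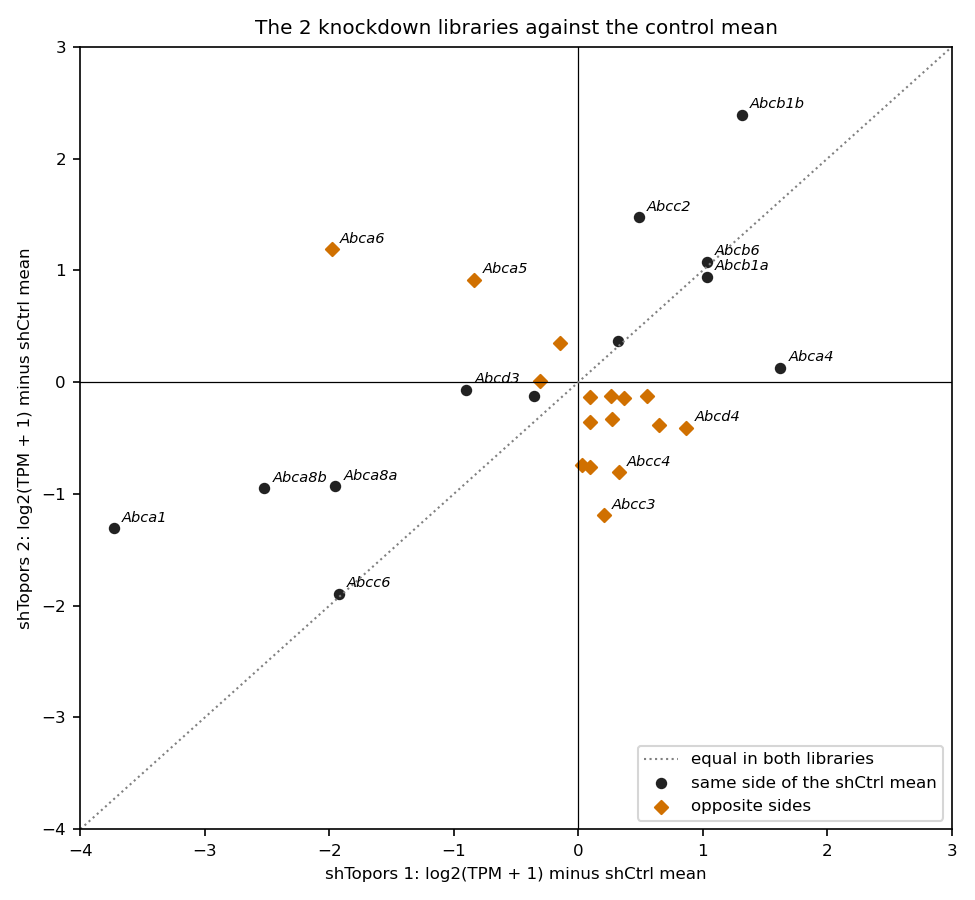
Log2(TPM + 1) minus the shCtrl mean in shTopors 1 (x axis) and shTopors 2 (y axis) for 28 tested ABC transporter genes, with a dotted line where both libraries are equal. The 16 diamonds lie on opposite sides of the control mean, the farthest being Abca6, while Abcc6, Abcb6 and Abcb1a lie close to the dotted line.

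With 1 knockdown library left out, limma called members that it did not call with both, with the lone library then assumed to vary like the controls. Without shTopors 1, 8 of 29 tested members passed an adjusted p of 0.05, beside 8.55% of all genes. They included Abcb1b, Abcb6, Abcc2 and Abca6 as higher and Abca1, Abcc3 and Abcc6 as lower. Without shTopors 2, 10 of 30 passed, beside 14.9% of all genes, including Abcb1b, Abcb1a, Abcb6 and Abca4 as higher and Abca1, Abca8a, Abca8b, Abcc6 and Abca6 as lower. Abca1, Abcb1b, Abcb6 and Abcc6 passed both times in the same direction, and Abca6 passed both times in opposite directions. These fits share the control libraries and are no independent support for each other.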

How the data were processed

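RNA of AML12 cells was measured in 2 shCtrl and 2 shTopors libraries, depleted of ribosomal RNA and strand-specific per the labels' protocols. The authors deposited TPM per gene and library, each library summing to between 999914 and 999943. The submitters' processing notes name the build mm10 and HISAT2, HTSeq, DESeq2 and StringTie. Versions, strand setting and the program that made the TPM: not given in the sources used here. Columns were assigned to samples by name, none was left over, and 3 identifiers on 2 rows were summed. All 50 members were found in GENCODE M21 and none was on 2 rows.

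The test was limma (version 3.58.1, under R 4.3.3) on log2(TPM + 1), allowing a mean-variance trend, without covariates, for 13509 genes averaging 1 TPM or more, with Benjamini-Hochberg adjustment over all of them and a threshold of 0.05. Fitted log2 differences understate the change of low genes on that scale, while folds between the groups are ratios of mean TPM. Groups do not overlap where both libraries of one lie beyond both of the other. The fit was tested on simulated data with the same spread for all genes and both groups. The real groups differed in spread, with an SD of the log2 difference between libraries of 0.429 within shCtrl and 0.688 within shTopors over all genes tested. The simulation thus does not cover that difference. Values in every library are given for members of at least 5 TPM on average or an unadjusted p under 0.05, and for the named exporters at any level, except 2 tested members and 1 gene of a pathway list that are counted but not reported here. Of each fixed pathway list the text names the up to 3 tested genes of highest mean TPM and those said to be chosen otherwise. The members, lists and tests were chosen with earlier results of these data known. Neighbours are members within 150 kb of each other. Promoters were 250 bases of a RefSeq table, found for 38 of 50 members, and shared sequence was counted in windows of 50 bases. Of the 14 alternatives, a pseudocount of 5 gave 6 calls over all genes in limma. A fit without the mean-variance trend gave 4, and a fit with robust empirical Bayes gave 7. The other alternatives are given in the closing section. The remaining steps used Python 3.11.15, pandas 2.3.3, numpy 2.4.6 and matplotlib 3.10.9.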

Additional observations from a re-analysis of the deposited data

How the results depend on the processing

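No ABC transporter gene was called by limma under any alternative with all 4 libraries or without a shCtrl library, and with 1 library left out the count ranged from 0 to 10, reaching 8 without shTopors 1 and 10 without shTopors 2. At an unadjusted p under 0.05 the 9 members with all libraries became 4 to 15 with 1 library left out. In the same fits the family's median log2 difference went from -0.08 to between -0.15 and 0.094. Members whose groups did not overlap went from 12 to between 15 and 27 in these fits. A single library lies apart from 2 others more easily than 2 libraries do, so this rise says nothing about the family. With all 4 libraries the alternatives gave from 10 such members (filter at 5 TPM, 28 tested) to 16 (no filter on low values, 44 tested). Over all genes, 5 calls became 0 with no filter on low values, 1 with a filter at 5 TPM, 1 with quantile normalization, 1 with median-of-ratios scaling, 1 when rescaled without small RNAs, mitochondrial and the most abundant genes, and 0 to 2029 with 1 library left out. The family's median was 0.10 after median-of-ratios scaling, where that of all genes was -0.02. With the replicate number as a block 33 genes passed and again no member. The labels do not say that a number marks a shared culture, and the replicate differences of the groups correlated at 0.199 over all genes tested.

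The 9 members with an unadjusted p under 0.05 kept their direction in all 125 fitted values, counted over genes and alternatives. They were picked by these data and their groups did not overlap. Leaving out a library could therefore not change their sign, so this is no separate support. Of the other 21, 16 changed sign at least once, mostly with a knockdown library left out. These are the 16 whose knockdown libraries lay on opposite sides of the control mean. Leaving out a knockdown library had to change the sign in each of them, so this repeats that count and is no separate result. The log2 difference ranged from -0.76 to 0.090 for Abca2, -0.84 to 0.92 for Abca5, -1.98 to 1.19 for Abca6, -0.12 to 0.56 for Abca7, -0.22 to 0.17 for Abcb10, -0.33 to 0.27 for Abcb8, -0.15 to 0.36 for Abcc1, -0.74 to 0.032 for Abcc10, -1.19 to 0.21 for Abcc3, -0.80 to 0.33 for Abcc4, -0.30 to 0.0095 for Abcc5, -0.41 to 0.87 for Abcd4, -0.36 to 0.10 for Abce1, -0.38 to 0.65 for Abcf1, -0.12 to 0.27 for Abcf3 and -0.15 to 0.35 for Abcg2. After median-of-ratios scaling it was 0.16 for Abcb10, 0.15 for Abcb8, 0.038 for Abcc5 and 0.057 for Abce1, with quantile normalization 0.16 for Abcb10 and 0.12 for Abcb8, and with a pseudocount of 0.1 it was -0.014 for Abca5. Why the knockdown libraries differ was not tested. Depth is unknown, so values under 1 TPM have no stated precision.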

Other observations

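Members of the ABC family that carry other symbols were low in these cells. The peptide transporter genes of antigen presentation, Tap1 and Tap2, were at 2.88 and 3.73 TPM and at 2.84 and 4.18 TPM in the controls, and at 3.63 and 2.16 TPM and at 1.81 and 3.05 TPM in the knockdown. Cftr, the chloride channel gene, was at 1.53 and 1.92 TPM in the controls, 0.299 TPM in shTopors 1 and 2.93 TPM in shTopors 2, with the knockdown libraries on either side of the controls as for Abca5 and Abca6. Their groups overlapped, and none passed in limma.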
